A study of Mus musculus with 36 samples.

Results

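The transcripts described here come from 35 genes of the lysosome, of 40205 features counted in the series, and all 35 were found in the count files by symbol. They comprise 6 membrane proteins, 9 cathepsins, 7 glycosidases, 5 genes of lipid handling, a peptidase, a thioesterase and progranulin (3 genes), 2 transcription factors and 3 sorting receptors. The list was chosen by lysosomal function together with 1 measured result, the fall of Lamp2 in EVs (extracellular vesicles) at 320 mg/dL ethanol. Values of that comparison are therefore given as a description, and nothing is read from its counts of calls.

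RNA was sequenced from mouse fetal neural stem cells (NSCs) grown as neurospheres and from the EVs that they released. The NSCs came from dorsal telencephalon at gestational day 12.5 of C57BL/6J mice, labelled WT. The breeders are named in the study's methods as C57BL/6J (Ai14), a line that carries a Cre-dependent fluorescent reporter. Tissue of 1 pregnancy was pooled by sex, so that 3 pregnancies (sets 3, 4 and 5) gave 3 female and 3 male cultures. Each of these 6 cultures was kept for 5 days in control medium (0 mg/dL), at 120 mg/dL (26 mM) or at 320 mg/dL (70 mM) ethanol, and each dose gave 1 EV and 1 cell library. The 36 libraries thus made up 12 groups, each of 3 libraries that shared location, sex and dose. No group carried another genetic change. The fetuses pooled in a culture cannot be separated in these data.

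Lysosomes are acidic organelles in which hydrolases break down protein, glycan and lipid. Most of these enzymes are made in the endoplasmic reticulum, tagged with mannose 6-phosphate and carried to the lysosome by sorting receptors, and the inner face of the lysosomal membrane is lined by the heavily glycosylated LAMP proteins. Multivesicular bodies, the endosomes that hold intraluminal vesicles, either fuse with lysosomes or with the plasma membrane, where they release those vesicles as exosomes. TFEB and TFE3 are transcription factors that switch on lysosomal genes by binding an E-box called the CLEAR element, and in adult neural stem cells lysosomal activity is known to differ between quiescent and dividing cells.

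The promoters of the 35 genes were searched for this element, from 250 bases before to 50 bases after the start of the canonical transcript (GRCm39, GENCODE). The E-box core CACGTG was present in 11 of the 35 promoters (31.4%), against 7.82% of 21757 promoters of protein-coding genes. The longer form TCACGTGA was in 5 of the 35 (14.3%, against 1.11% of all). Each motif reads the same on both strands, and the longer form contains the core. The genes with the core were Lamp1, Mcoln1, Cln3, Ctsb, Ctsd, Ctsf, Gaa, Gla, Glb1, Naglu and Igf2r, and in the window of Lamp2 these letters were not present. The stretches below are shown because they hold a copy each of Lamp1, with 4 copies in its window the gene with the most, of Ctsd, the cathepsin with the highest cell level, and of Gla and Igf2r, the genes with 2 copies of TCACGTGA. One motif per stretch is in capitals, and further copies are in lower case. They lie at chr8:13209070-13209135 (plus strand), chr7:141941774-141941839 (minus strand), chrX:133501945-133502012 (minus strand) and chr17:12988605-12988672 (minus strand) in that order.
Lamp1: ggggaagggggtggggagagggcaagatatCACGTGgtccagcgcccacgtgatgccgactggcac
Ctsd: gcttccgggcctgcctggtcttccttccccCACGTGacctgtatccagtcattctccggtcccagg
Gla: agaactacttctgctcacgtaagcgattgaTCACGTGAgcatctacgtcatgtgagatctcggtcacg
Igf2r: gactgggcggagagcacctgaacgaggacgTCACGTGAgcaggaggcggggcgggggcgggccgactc
Relative to the transcript start, the capitals begin at position -21 in Lamp1, -34 in Ctsd, -78 in Gla and -28 in Igf2r. A match describes the sequence only and is not evidence of binding.

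Totals were 959217 to 5509952 counts in the 18 EV libraries (median 3825686) and 26566061 to 55282322 in the 18 cell libraries (median 37813815), so that a gene with few counts in EVs carried a larger counting error there. Levels are given as CPM, the counts of a gene relative to a common library size, scaled over all 36 libraries by TMM, a method that assumes that most genes do not differ. The markers of neural stem cells (Sox2, Nes, Pax6, Hes1, Fabp7, Vim, Slc1a3 and Sox9) summed to 2618 to 4117 CPM in cells and 755 to 1347 CPM in EVs, with Sox2 at 0 counts in every library. The 6 markers of microglia and macrophages, cells rich in lysosomes, summed to 0.521 to 0.910 CPM in cells and to 1.09 to 15.8 CPM in EVs. A higher median in EVs was not particular to that list. It was also found for markers of neurons, fibroblasts, erythroid cells and endothelial cells (3.85 against 1.18 CPM for the last). The source of these EV reads was not tested. The kit was stranded, whereas the sources used here do not give the strand option of HTSeq. Of the 35 genes, 21 share exonic bases with a gene on the opposite strand, among them Lamp1 with Grtp1, Ctsb with Fdft1 and Grn with Fam171a2. Ctsd, Ctsl and Glb1, of which Ctsl is also among those 21, share exonic bases with a gene or pseudogene on the same strand, so reads of such pairs may not be told apart. Lamp2 and Psap overlap no other exon.

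In cells the lysosome transcripts were abundant, and in EVs most of them were depleted. The summed level of the 35 genes was 1557 to 2638 CPM in the 18 cell libraries (median 2092 CPM) and 503 to 1529 CPM in the 18 EV libraries (median 809 CPM), so that every EV library lay below every cell library. Of the 35 genes, 32 were lower in EVs and 1, Tfeb, was higher (edgeR's quasi-likelihood test with Benjamini-Hochberg adjusted p under 0.05), whereas Lamp2 and Grn were not called. Over all genes tested 80.5% were called, 42.2% as lower and 38.4% as higher in EVs. On the log2 scale, EVs over cells had a median of -1.71 over the 35 genes and of -0.08 over all genes. The fit took the 3 doses of a culture as separate samples, and with counts summed per culture 32 genes were called and the adjusted p of Lamp1 was 4.54e-07 in edgeR. In 20 of the 35 genes each EV library was below each cell library, which held for 14.8% of all genes. EV RNA and cell RNA were extracted with different kits, and location and kit cannot be told apart. The paper also reports that the integrity of EV RNA could not be scored accurately. Within the cell libraries, which are bulk samples, fewer cells of a type and less RNA per cell cannot be told apart.

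**Figure D1:**
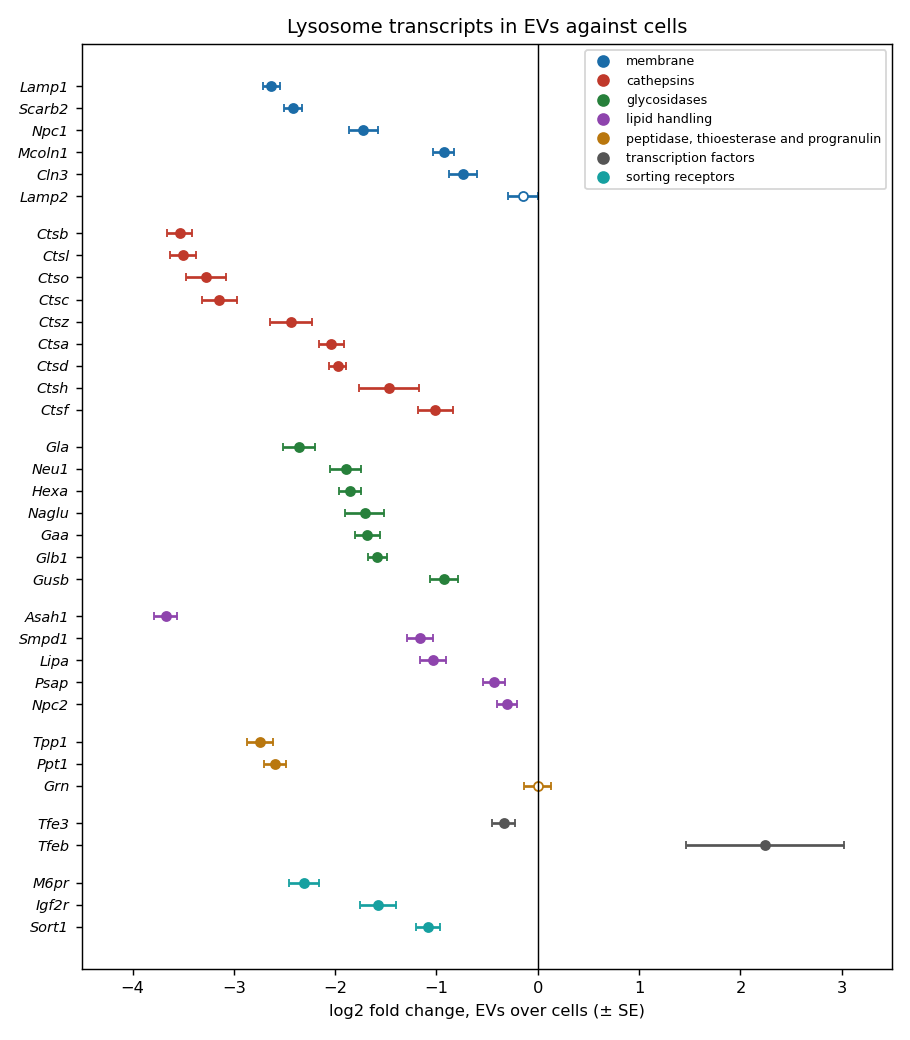
Log2 fold change of EVs over cells for each of the 35 lysosome genes, grouped and coloured by role, with bars for the SE of the edgeR fit over 36 libraries. Filled points passed an adjusted p of 0.05 and open points (Lamp2 and Grn) did not, and the only point to the right of 0 beyond its SE is Tfeb, whose level rests on 2 EV libraries.

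The membrane proteins split in their EV level. LAMP1 and LAMP2 are the main glycoproteins of the lysosomal membrane, and LAMP2 also takes part in autophagy. Lamp1 (chr8:13209121-13227360, plus strand) ranged from 187 to 287 CPM in the 18 cell libraries, with a median of 225 CPM. In the 18 EV libraries it ranged from 22.1 to 53.5 CPM, with a median of 36.6 CPM. The ranges did not overlap, and Lamp1 was 6.19-fold higher in cells (log2 fold change -2.63, SE 0.08; edgeR's quasi-likelihood test with Benjamini-Hochberg adjustment, adjusted p = 2.19e-25). It was lower in EVs in 6 of 6 cultures.

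Lamp2 (chrX:37488520-37545340, minus strand) did not follow its partner. It ranged from 161 to 316 CPM in cells, with a median of 231 CPM, and from 68.8 to 399 CPM in EVs, with a median of 210 CPM. The EV range enclosed the cell range. EVs differed from cells by -0.14 on the log2 scale (SE 0.15; edgeR's quasi-likelihood test with Benjamini-Hochberg adjustment, adjusted p = 0.38). The 320 mg/dL EV libraries that chose the list enter this value, and in the control libraries alone it was 0.21. It also turned with the pregnancies used, from -0.39 without set 3 to 0.21 without set 5. Averaged over doses, Lamp2 was higher in EVs than in cells in the female culture of set 3 (217 against 208 CPM), the male culture of set 3 (307 against 184 CPM) and the male culture of set 4 (304 against 252 CPM). It was lower in EVs in the other cultures, and most so in the female culture of set 5 (98.0 against 257 CPM).

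Of the other membrane proteins, Scarb2 encodes LIMP-2, the receptor that brings glucocerebrosidase to lysosomes. It ranged from 122 to 225 CPM in cells (median 172 CPM) and from 21.6 to 37.8 CPM in EVs (median 33.6 CPM), with no overlap and a log2 fold change of -2.42 (SE 0.09). Npc1, the membrane part of the cholesterol exporter, had a log2 fold change of -1.72 (SE 0.14). Mcoln1, a calcium channel of the lysosome, and Cln3, a membrane protein mutated in juvenile Batten disease, were lower by less, with log2 fold changes of -0.93 (SE 0.10) and -0.74 (SE 0.14) and overlapping ranges.

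All 9 cathepsins, the proteases of the lysosome, were lower in EVs (median -2.44 on the log2 scale), and 7 of them did not overlap between locations. Ctsb, a cysteine protease, ranged from 80.0 to 186 CPM in cells (median 130 CPM) and from 3.32 to 15.4 CPM in EVs (median 11.9 CPM). The EV values rest on 3 to 47 counts per library. Ctsb was thus 11.6-fold higher in cells (log2 fold change -3.53, SE 0.12; edgeR's quasi-likelihood test with Benjamini-Hochberg adjustment, adjusted p = 6.27e-24). Ctsl, a related cysteine protease, ranged from 48.6 to 105 CPM in cells and from 1.66 to 10.3 CPM in EVs, with medians of 69.1 and 6.84 CPM. Its log2 fold change was -3.51 (SE 0.13; edgeR's quasi-likelihood test with Benjamini-Hochberg adjustment, adjusted p = 3e-23).

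Ctsd, the aspartic protease of the lysosome, kept more of its level. It ranged from 125 to 227 CPM in cells (median 173 CPM) and from 25.9 to 68.7 CPM in EVs (median 45.6 CPM), with a log2 fold change of -1.98 (SE 0.09). Ctso and Ctsc, the latter the enzyme that activates serine proteases of immune cells, had log2 fold changes of -3.28 (SE 0.20) and -3.14 (SE 0.17). Their EV values rest on only 0 to 13 and 0 to 17 counts per library. Ctsz and Ctsa, which are carboxypeptidases, followed at -2.44 (SE 0.21) and -2.04 (SE 0.13). The smallest differences were those of Ctsh and Ctsf, at -1.47 (SE 0.29) and -1.01 (SE 0.17), the 2 cathepsins whose ranges overlapped. Counts in EVs were also low for Ctsz (0 to 10 per library) and Ctsh (1 to 16).

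All 7 glycosidases were lower in EVs, with a median log2 fold change of -1.71. Hexa, the alpha subunit of the hexosaminidase that degrades GM2 ganglioside, ranged from 37.1 to 77.2 CPM in cells (median 53.0 CPM) and from 8.72 to 24.9 CPM in EVs (median 14.5 CPM). It was 3.62-fold higher in cells (log2 fold change -1.86, SE 0.11; edgeR's quasi-likelihood test with Benjamini-Hochberg adjustment, adjusted p = 1.01e-17). Gla (alpha-galactosidase), Neu1 (sialidase), Naglu (a heparan sulfate glycosidase), Gaa (which degrades glycogen) and Glb1 (beta-galactosidase) lay between -2.36 and -1.58 on the log2 scale. Gusb (beta-glucuronidase) was lower by the least, at -0.93 (SE 0.14). Counts in EVs were few for Gla (1 to 12 per library), Neu1 (0 to 14) and Naglu (0 to 15).

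The genes of lipid handling held both the strongest and some of the weakest differences. Asah1, the acid ceramidase, ranged from 89.0 to 136 CPM in cells (median 116 CPM) and from 3.94 to 14.9 CPM in EVs (median 8.51 CPM). It was 12.8-fold higher in cells, the largest difference of the 35 genes (log2 fold change -3.67, SE 0.11; edgeR's quasi-likelihood test with Benjamini-Hochberg adjustment, adjusted p = 2.55e-25). In contrast, Psap and Npc2 were close to parity under TMM. Psap encodes prosaposin, the precursor of the saposins that help enzymes to reach sphingolipids, and ranged from 146 to 352 CPM in cells (median 260 CPM) and from 104 to 400 CPM in EVs (median 204 CPM).

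Its log2 fold change was -0.43 (SE 0.11; edgeR's quasi-likelihood test with Benjamini-Hochberg adjustment, adjusted p = 0.000592). This call was lost without set 5 (log2 fold change -0.17, adjusted p = 0.203 in edgeR) and in the control libraries alone (-0.29, adjusted p = 0.275 in edgeR). Npc2, the soluble cholesterol carrier that hands cholesterol to NPC1, ranged from 51.2 to 90.5 CPM in cells (median 67.9 CPM) and from 33.9 to 79.5 CPM in EVs (median 59.6 CPM). The ranges overlapped for most libraries. Its log2 fold change was -0.30 (SE 0.10; edgeR's quasi-likelihood test with Benjamini-Hochberg adjustment, adjusted p = 0.00456), and without set 5 it was -0.11 (adjusted p = 0.409 in edgeR). Smpd1, the acid sphingomyelinase, and Lipa, the acid lipase, had log2 fold changes of -1.16 (SE 0.13) and -1.04 (SE 0.13).

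Tpp1, a tripeptidyl peptidase, and Ppt1, a palmitoyl-protein thioesterase, are both mutated in neuronal ceroid lipofuscinoses and were lower in EVs without overlap. Ppt1 ranged from 28.1 to 38.4 CPM in cells (median 33.0 CPM) and from 3.63 to 9.47 CPM in EVs (median 5.48 CPM), with a log2 fold change of -2.60 (SE 0.11). That of Tpp1 was -2.74 (SE 0.13). Grn encodes progranulin, a secreted and lysosomal glycoprotein. It was at 8.15 to 21.9 CPM in cells (median 12.5 CPM) and 4.05 to 26.9 CPM in EVs (median 12.9 CPM), and the EV range enclosed the cell range (log2 fold change -0.00, SE 0.13; edgeR's quasi-likelihood test with Benjamini-Hochberg adjustment, adjusted p = 0.989).

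All 3 sorting receptors were lower in EVs. Igf2r, the large mannose 6-phosphate receptor, ranged from 49.2 to 139 CPM in cells (median 80.6 CPM) and from 11.2 to 51.5 CPM in EVs (median 26.2 CPM), with a small overlap. Its log2 fold change was -1.58 (SE 0.18; edgeR's quasi-likelihood test with Benjamini-Hochberg adjustment, adjusted p = 4.02e-10). M6pr, the small mannose 6-phosphate receptor, and Sort1, the sortilin that carries progranulin and prosaposin, had log2 fold changes of -2.31 (SE 0.15) and -1.08 (SE 0.12).

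Of the transcription factors, Tfe3 was at 3.58 to 6.89 CPM in cells (median 5.38 CPM) and 1.70 to 6.06 CPM in EVs (median 4.00 CPM), with a log2 fold change of -0.34 (SE 0.11; edgeR's quasi-likelihood test with Benjamini-Hochberg adjustment, adjusted p = 0.00664). The call of Tfe3 was lost in DESeq2 (adjusted p = 0.0718), without set 4 (0.097 in edgeR), without set 5 (0.0648) and in the control libraries alone (0.0546). Tfeb was the exception of the list. In cells it was at 2.20 to 9.96 CPM (median 4.82 CPM), and in EVs its median was 4.50 CPM. The male EV libraries of set 5 at 0 and 120 mg/dL, however, held 404 and 515 CPM (1722 and 1403 counts), and no other EV library exceeded 8.67 CPM. The cell libraries of that culture held 7.12 CPM in control medium and 8.18 CPM at 120 mg/dL. Tfeb was called as higher in EVs with those libraries (log2 fold change 2.24, SE 0.78; edgeR's quasi-likelihood test with Benjamini-Hochberg adjustment, adjusted p = 0.00913), and without them it was -0.47 (adjusted p = 0.0922 in edgeR). With the EV and cell libraries paired as a block, it was 0.51 (adjusted p = 0.365 in edgeR). What these reads are was not tested. Without those libraries 32 of the 35 genes were called, and their median was -1.89 on the log2 scale.

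**Figure D2:**
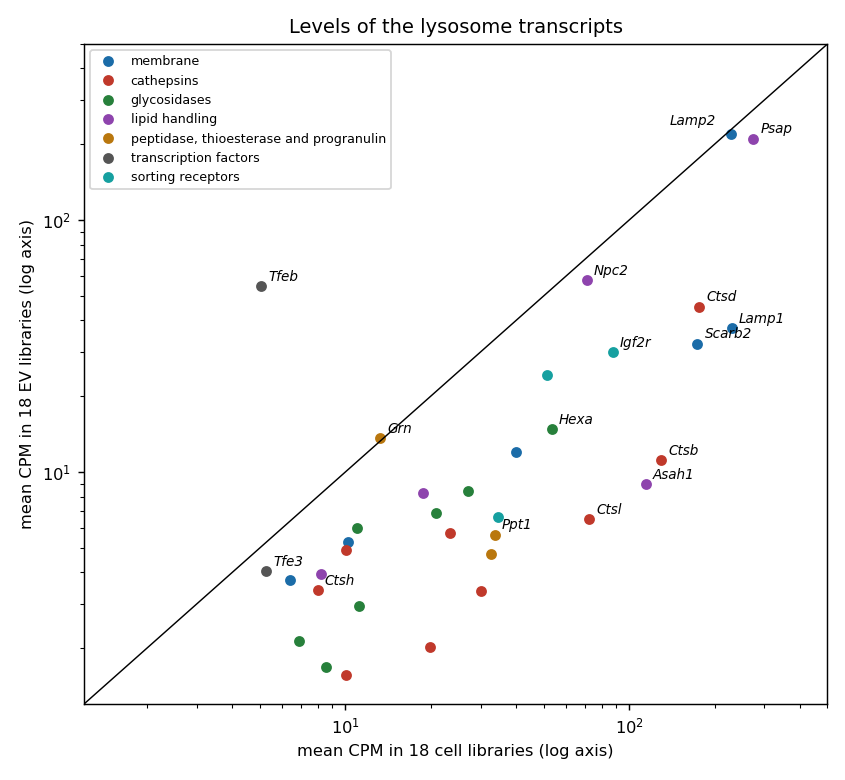
Mean CPM of each lysosome gene in 18 cell libraries (x) and 18 EV libraries (y), both on log axes and coloured by role, with a line where the levels are equal. Lamp2 (229 CPM in cells, 220 CPM in EVs), Psap, Npc2 and Grn sit near the line, most genes lie below it, and Tfeb stands above it through 2 libraries.

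Below Psap, the order of the lysosome genes differed between cells and EVs. Exonic length was taken over the merged exons of all annotated transcripts, with 12695 bases for Lamp2 and 3194 for Psap, so the order depends on annotation. Per kilobase of exon, Psap was the highest in cells at 85.9 CPM per kb, followed by Ctsd (63.7 CPM per kb), Lamp1 (44.1 CPM per kb) and Scarb2 (25.2 CPM per kb), with Lamp2 next. In EVs, Psap led at 65.8 CPM per kb, followed by Lamp2 (17.3 CPM per kb), Ctsd (16.4 CPM per kb) and Npc2 (9.41 CPM per kb). Lamp2 and Psap together made up 21.0 to 27.7% of the summed CPM of the 35 genes in cells (median 24.7%) and 30.5 to 62.9% in EVs (median 50.9%), and no EV library was below a cell library in this share. Across the 35 genes, Spearman's rho of the log2 fold change was 0.06 with exonic length and -0.35 with the cell level, and across 13002 protein-coding genes it was 0.01 and -0.46. These correlations are across genes, which are not independent replicates, and both levels come from the same libraries. For the 11 genes with CACGTG in the promoter the median difference was -1.68 on the log2 scale, and for the other 24 it was -1.79.

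Scaling moved all genes together. With library totals in place of TMM, the median log2 fold change was -2.54 over the 35 genes and -0.88 over all genes, 34 of the 35 were called as lower, and Lamp2 and Grn were among them (log2 fold changes -0.87 and -0.78). Without the filter on low counts both were also called as lower (-0.77 and -0.63), and with every library thinned to the depth of the shallowest Grn was called as higher (0.55, adjusted p = 0.00419 in edgeR) and Lamp2 was at 0.25. Psap and Npc2 were at -1.19 and -1.07 with library totals and at -1.06 and -0.92 without the filter. The parity of Lamp2 and Grn with cells and the small differences of Psap and Npc2 thus depended on the scaling and the filter. The parity of Grn was also lost on thinned counts. There, all named genes still tested moved up, as Lamp1 to -2.23 and Psap to -0.02. Thinning changed both the depth and the genes kept, and which of them moved the values was not tested. Relative to all genes, the 35 lay 1.63 lower under TMM and 1.66 lower under library totals on the log2 scale.

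Other lysosomal genes were examined in 6 lists (97 genes, of which 94 were tested). Of these, 63 were lower and 20 were higher in EVs, where 42.2% of all genes were called as lower and 38.4% as higher. The counts per list below stand against the same shares. The V-ATPase, which acidifies the lysosome, had 12 of 17 tested genes lower and 4 higher. Its accessory subunits Atp6ap2 and Atp6ap1 had log2 fold changes of -3.49 and -3.28, whereas the subunits Atp6v1b2 and Atp6v0e2 were higher, at 1.97 and 1.48. Further hydrolases and activators had 16 of 22 lower and 3 higher. Among them were the GM2 activator Gm2a (-2.48) and Aga (-2.27) on the lower side and Galns (1.32) on the higher side.

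Further membrane proteins had 9 of 14 lower and 4 higher. Cd63, a tetraspanin used as a marker of EV protein, and Laptm4a were at -3.03 and -3.02, while the sialic acid exporter Slc17a5 and Tmem192 were both at 1.44. The controls of mTORC1 and TFEB had 11 of 14 lower and 1 higher. Fnip1 and Lamtor3 were at -2.25 and -1.58, and Rptor, the scaffold of mTORC1, was at 1.34. Genes of sorting and fusion had 11 of 15 lower and 2 higher, with the retromer subunits Vps35 and Vps29 at -1.97 and -1.86 and Gga1 and Vps33a at 1.03 and 0.84. The autophagy list was more balanced, with 4 of 12 lower and 6 higher and a median log2 fold change of 0.11. There, Wipi2 (2.55) and the kinase Ulk1 (1.12) were higher, and Atg5 (-1.10) and the receptor Sqstm1 (-1.03) were lower.

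The response to ethanol was compared within cultures, and Lamp2 in EVs is the measure on which the list was selected. In the male cultures, Lamp2 in EVs went from 399 CPM in control medium to 267 CPM at 120 mg/dL and 255 CPM at 320 mg/dL in set 3. It went from 385 to 287 and 240 CPM in set 4, and from 307 to 198 and 162 CPM in set 5. The male cultures thus fell with each dose. In the female cultures, it went from 279 to 206 and 165 CPM in set 3, from 211 to 209 and 93.3 CPM in set 4, and from 137 to 88.1 and 68.8 CPM in set 5. Lamp2 fell with each dose in 6 of 6 cultures, and 44.2 to 64.0% of the control level was left at 320 mg/dL. Of 11880 genes tested in EVs, 6 fell with each dose in all 6 cultures (0.0505%), and since the list was chosen for this fall, the share is no evidence on Lamp2.

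The fitted log2 change of Lamp2 in EVs was -0.85 at 320 mg/dL (SE 0.13) and -0.46 at 120 mg/dL (SE 0.13), both against the same control libraries. At 320 mg/dL the edgeR fit called 0.0842% of all genes and 1 of the 30 lysosome genes tested, Lamp2, a call that the choice of the list had fixed and that is no test of it. Ctsh, Ctso, Ctsz, Gla and Naglu had too few counts in EVs to enter that fit. The call of Lamp2 was absent without set 3, without set 5, with library totals, without the culture block and with only the compared doses in the fit.

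**Figure D3:**
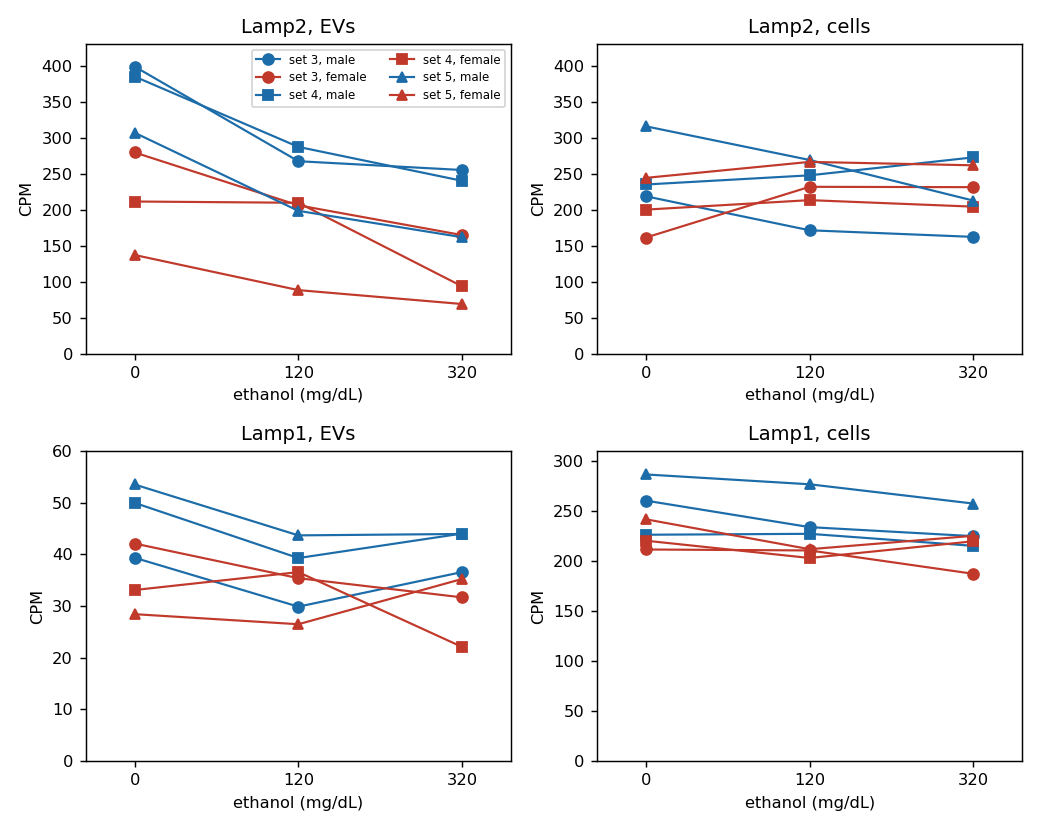
CPM of Lamp2 (top) and Lamp1 (bottom) in EVs (left) and cells (right) at 0, 120 and 320 mg/dL ethanol (spaced evenly), 1 line per culture, with colour for sex and marker for pregnancy. Lamp2 fell in each of the 6 EV lines (from 399 to 255 CPM in the highest and from 137 to 68.8 CPM in the lowest), and the cell lines of Lamp2 crossed. The Lamp1 panels have different vertical scales.

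In cells, the cultures differed in the direction of Lamp2. It went from 218 CPM in control medium to 171 and 162 CPM in the male culture of set 3, from 235 to 248 and 272 CPM in that of set 4, and from 316 to 269 and 212 CPM in that of set 5. In the female cultures it went from 161 to 232 and 231 CPM in set 3, from 200 to 213 and 204 CPM in set 4, and from 244 to 266 and 261 CPM in set 5. At 320 mg/dL, 2 cultures were lower and 4 were higher than their control. The log2 change was -0.02 (SE 0.11, 95% interval -0.24 to 0.20; edgeR's quasi-likelihood test with Benjamini-Hochberg adjustment, adjusted p = 0.975) at 320 mg/dL and 0.02 (SE 0.11, interval -0.20 to 0.24; edgeR, adjusted p = 1) at 120 mg/dL.

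The ratio of Lamp2 in EVs to Lamp2 in cells was compared in each culture. In control medium it was 1.73, 1.06 and 0.561 in the female and 1.82, 1.64 and 0.972 in the male cultures of sets 3, 4 and 5. At 120 mg/dL it was 0.889, 0.983 and 0.331 in the female and 1.56, 1.16 and 0.737 in the male cultures. At 320 mg/dL it was 0.712, 0.457 and 0.263 in the female and 1.57, 0.881 and 0.761 in the male cultures, in that order. The ratio was lower than in control medium in 6 of 6 cultures at both doses, but in the male cultures of sets 3 and 5 it was no lower at 320 than at 120 mg/dL. The fitted log2 change of the ratio was -0.87 (SE 0.22) at 320 mg/dL and -0.54 (SE 0.22) at 120 mg/dL, which again share the EV libraries that chose the list.

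Lamp1 gave smaller differences. In EVs its mean was 41.1 ± 9.62 CPM in control medium, 35.2 ± 6.25 CPM at 120 mg/dL and 35.6 ± 8.26 CPM at 320 mg/dL (SD, n = 6), with log2 changes of -0.22 (SE 0.12) and -0.18 (SE 0.11). At either dose 5 of 6 cultures were lower than control. In cells it was 241 ± 28.2, 227 ± 26.9 and 222 ± 22.5 CPM (SD, n = 6) in that order. At 320 mg/dL Lamp1 in cells was below control in 6 of 6 cultures, as were 2.89% of all genes, with a log2 change of -0.12 (SE 0.06; edgeR's quasi-likelihood test with Benjamini-Hochberg adjustment, adjusted p = 0.602).

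Of the other lysosome genes in EVs, Ctsd fell with each dose in 4 of 6 cultures, Cln3 in 3 and each of the rest in at most 2. Besides Lamp2, Psap was the only one lower at 320 mg/dL in all 6 cultures, as were 5.47% of all genes. It went from 257 ± 94.9 to 179 ± 57.5 CPM (SD, n = 6; log2 change -0.51, SE 0.16). Ctsd went from 53.2 ± 11.5 to 38.8 ± 9.16 CPM (SD, n = 6; log2 change -0.44, SE 0.13) and Smpd1 from 10.3 ± 3.06 to 7.02 ± 1.61 CPM (SD, n = 6; log2 change -0.62, SE 0.24), each lower in 5 of 6 cultures. Other hydrolases were on the other side of control. Gaa went from 7.23 ± 1.92 to 9.91 ± 1.27 CPM (SD, n = 6; log2 change 0.41, SE 0.18) and was higher in 6 of 6 cultures. By CPM this held for Ctsc too, whose log2 change with a prior count was -0.21 in the female culture of set 3. No share over all genes is given for such a rise, so nothing is read from it. Asah1 and Gusb had log2 changes of 0.37 (SE 0.20) and 0.45 (SE 0.23). In all, 16 of the 30 genes were lower and 14 higher, with a median log2 change of -0.08 against 0.01 over all genes, and no p is given for any of them. With library totals 23 of the 30 were lower, while the median of all genes moved to -0.23.

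**Figure D4:**
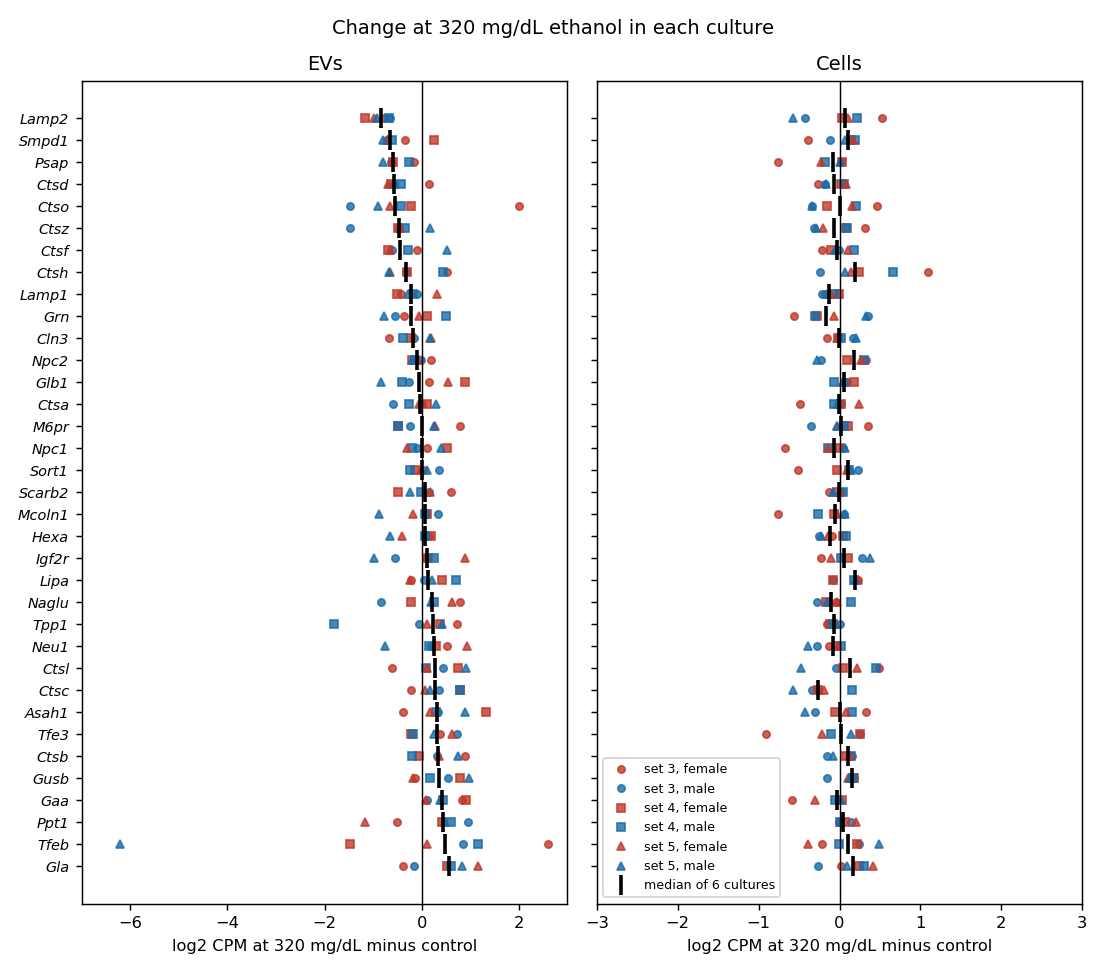
Difference of log2 CPM between 320 mg/dL and control in each of 6 cultures for the 35 lysosome genes in EVs (left) and cells (right), with the horizontal scales differing. Black bars mark the median of the 6 cultures, and Lamp2 is the top gene in EVs (from -1.16 to -0.64) and straddles 0 in cells.

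At 120 mg/dL in EVs, 0 of the 29 genes other than Lamp2 were called, against 0.00842% of all genes, and DESeq2 called 0 as well. An unadjusted p under 0.05 was reached by 3 of them in edgeR, Mcoln1, Psap and Ctsd, and by 6.26% of all genes. Psap and Ctsd were lower in 5 of 6 cultures. Mcoln1 was lower in 6 of 6 by CPM and in 5 of 6 by log2 CPM with a prior count. Psap went from 257 ± 94.9 to 195 ± 51.6 CPM (SD, n = 6; log2 change -0.38, SE 0.16; edgeR's quasi-likelihood test with Benjamini-Hochberg adjustment, adjusted p = 0.791). The log2 changes of Mcoln1 and Ctsd were -0.50 (SE 0.22) and -0.29 (SE 0.13). Of the 30 tested, 20 were lower and 10 higher, with a median log2 change of -0.15 against -0.01 over all genes, and with library totals 28 were lower against a median of -0.26 over all genes. By role, 5 of 6 membrane genes, 4 of 5 genes of lipid handling and 3 of 3 of the peptidase, thioesterase and progranulin group were lower. So were 3 of 5 tested glycosidases, 2 of 3 sorting receptors, 1 of 2 transcription factors and 2 of 6 tested cathepsins. No share over all genes is given for these counts, so nothing is read from the split by role.

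In cells, 0 of the 35 genes were called at 120 mg/dL, where 0% of all genes were called, and 0 were called at 320 mg/dL, where 0.0393% were. DESeq2 called 0 at both doses, and an unadjusted p under 0.05 was reached in edgeR by 0 genes at 120 mg/dL (2.5% of all genes) and by 2 at 320 mg/dL (8.57% of all genes). These were Ctsc, which was lower in 5 of 6 cultures, and Ctsh, which was higher in 5 of 6. Ctsc went from 32.6 ± 11.6 to 27.6 ± 10.3 CPM (SD, n = 6; log2 change -0.25, SE 0.08; edgeR's quasi-likelihood test with Benjamini-Hochberg adjustment, adjusted p = 0.401). Ctsh went from 7.81 ± 5.21 to 8.66 ± 3.72 CPM (SD, n = 6; log2 change 0.30, SE 0.13; edgeR, adjusted p = 0.562). The median log2 change of the 35 genes in cells was -0.04 at 120 mg/dL and -0.02 at 320 mg/dL, with 25 and 20 of the 35 lower. With library totals 32 and 31 were lower, and the medians of all genes moved to -0.06 and -0.12.

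The EV:cell ratio was called for 0 of the 34 genes other than Lamp2 at 120 mg/dL, against 0.0107% of all genes, and for 0 at 320 mg/dL, against 0% of all genes. DESeq2 called 0 of these 34 at either dose. In edgeR 0 of them at 120 mg/dL and 2 at 320 mg/dL, Gaa and Smpd1, had an unadjusted p under 0.05, as did 3.35 and 5.37% of all genes. Of the further 97 lysosomal genes in 6 lists, 0 were called for either dose in EVs (84 tested), in cells (95 tested) or in the ratio (95 tested).

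Sex was compared over cultures, with the counts of the 3 doses of a culture summed, so that 3 female cultures stood against 3 male ones. Raw counts were summed, so the deeper libraries of a culture weighed more, and sex and dose were not fully apart. For Lamp2 in EVs of set 3, the counts at 0, 120 and 320 mg/dL were 1317, 161 and 467 in the male culture. In the female culture they were 272, 797 and 556. The log2 differences and the counts of lower genes used a TMM scale of these summed counts within each location. The CPM means keep the scale of all 36 libraries and weigh the 3 doses equally. Some genes changed side between these measures. Lamp2 in cells of set 3 averaged 208 CPM in the female and 184 CPM in the male culture, with a log2 difference of -0.05. In cells 33 of the 35 genes had a lower level in females, with a median log2 difference (female minus male) of -0.27 against -0.03 over all genes. None was called (0 of 35, against 0.0334% of all genes; DESeq2 also called 0), and 3 genes had an unadjusted p under 0.05 in edgeR, as did 6.67% of all genes. Female cells were lower for 33 of the 35 genes in set 3, 23 in set 4 and 30 in set 5, and 56.6, 49.0 and 47.5% of all genes were lower there. In 20 of the 35 genes the female culture was lower in all 3 pregnancies, as were 16% of all genes. The genes of a culture share their library, so these counts are not independent of each other, and beyond the 3 pregnancies sex and culture cannot be told apart.

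Ctsb, Ctsa and Grn had the smallest unadjusted p in cells. Ctsb averaged 108 ± 19.1 CPM in female and 151 ± 27.1 CPM in male cells (SD, n = 3 cultures; log2 difference -0.58, SE 0.23), with differences of -0.71, -0.43 and -0.61 in sets 3, 4 and 5 (edgeR's quasi-likelihood test with Benjamini-Hochberg adjustment, adjusted p = 0.736). Grn averaged 10.8 ± 0.873 and 15.7 ± 2.77 CPM (SD, n = 3 cultures; log2 difference -0.60, SE 0.20; edgeR, adjusted p = 0.669). Ctsc and Ctsz were the genes with a positive log2 difference (0.34, SE 0.37, and 0.63, SE 0.31). Asah1, M6pr, Cln3 and Neu1 had a higher mean CPM in females but a negative log2 difference. Lamp1 and Lamp2 in cells differed by -0.28 (SE 0.17; edgeR, adjusted p = 0.827) and -0.18 (SE 0.22; edgeR, adjusted p = 0.946). When the libraries of each dose were taken as separate samples, Ctsa, Ctsb, Ctsz and Grn passed the test in cells among 994 genes in all, but the 3 libraries of a culture are not independent cultures.

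**Figure D5:**
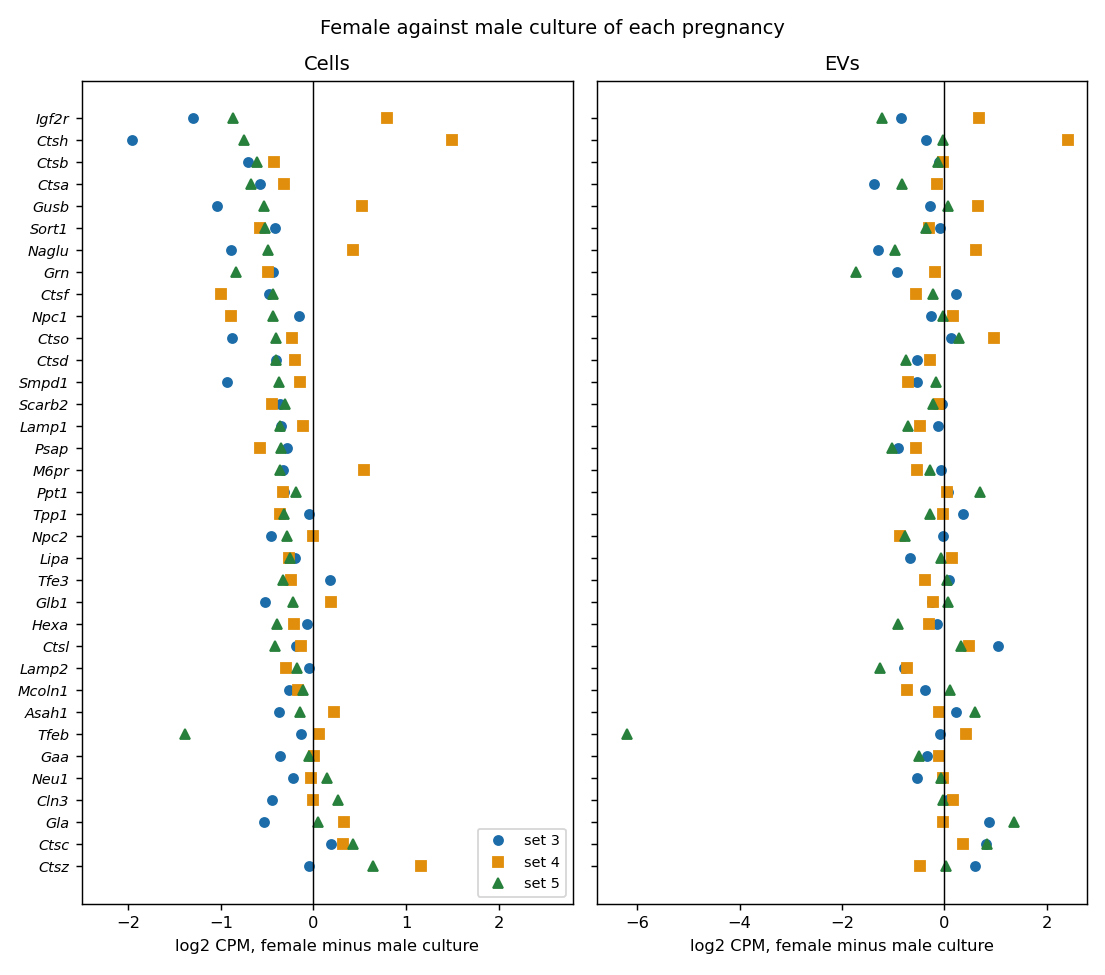
Log2 difference between the female and the male culture of each pregnancy for the 35 lysosome genes in cells (left) and EVs (right), from counts summed over 3 doses, with the horizontal scales differing. Points left of 0 are lower in the female culture, as for 33 of the 35 genes in set 3 in cells, and the Tfeb point far to the left in EVs comes from the 2 male libraries of set 5.

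In EVs the level was lower in females for 25 of the 35 genes, with a median log2 difference of -0.25 against 0.04 over all genes, and 0 of them were called in edgeR and in DESeq2, against 0% of all genes in edgeR. With library totals 28 of the 35 were lower, against a median of -0.11 over all genes. An unadjusted p under 0.05 was reached by 6 of the 35 genes, and by 15% of all genes. The female culture was lower in all 3 pregnancies in 15 of the 35 genes, against 22.7% of all genes. Lamp2 in EVs averaged 162 ± 59.9 CPM in female and 278 ± 48.1 CPM in male cultures (SD, n = 3). The means over doses were 217 against 307 CPM in set 3, 171 against 304 CPM in set 4 and 98.0 against 222 CPM in set 5, so that the female culture was lower in each pregnancy (log2 difference -0.88, SE 0.37; edgeR's quasi-likelihood test with Benjamini-Hochberg adjustment, adjusted p = 0.326).

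Psap in EVs averaged 159 ± 27.9 CPM in female and 261 ± 26.2 CPM in male cultures (SD, n = 3) and was lower in the female culture of each pregnancy (log2 difference -0.83, SE 0.31; edgeR's quasi-likelihood test with Benjamini-Hochberg adjustment, adjusted p = 0.316). Lamp1 in EVs differed by -0.44 (SE 0.21; edgeR, adjusted p = 0.348). Some cathepsins lay on the other side, with Ctsl at 0.57 (SE 0.27) and Ctsc at 0.59 (SE 0.37), both higher in the female EVs of each pregnancy. With the libraries of each dose as separate samples, Lamp2, Psap and Ctsl passed the test in EVs, among 1224 genes in all. Of the further 97 lysosomal genes, 0 were called by sex in EVs (93 tested) or in cells (96 tested).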

How the data were processed

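The authors removed adapters and duplicate reads, mapped to mm39 with STAR and counted with HTSeq, and the deposited values are whole counts per gene and library. Groups, doses and sets were taken from the labels. All tests used these counts, in edgeR 4.0.16 and limma 3.58.1 under R 4.3.3, with DESeq2 1.42.0 as an alternative. Figures were made in matplotlib 3.10.9 (Python 3.11.15). For edgeR, filterByExpr kept genes (minimum count 10, minimum total count 15), TMM set the scale, and quasi-likelihood tests were run over the whole table with a Benjamini-Hochberg adjusted p of 0.05 as threshold. The comparison of locations used all 36 libraries with sex and dose as terms, ethanol was fitted with the culture as a block, the EV:cell ratio as a location by dose term, and sex on counts summed per culture. The SE is the log2 fold change divided by the root of F. Log2 CPM used a prior count of 1. Positions, exonic lengths and promoters came from GENCODE on GRCm39 by symbol. Simulated data, in which 200 genes were changed, were used to check the fits.

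The members, the other lists and the tests were chosen with earlier results of these data known. Named by rule were Lamp1 and Lamp2, the 3 members with the largest called change in each direction, the most abundant member of each role, and 2 genes per list and direction. A result that this rule would name is not reported here. Further members are named after their values were seen.

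Libraries of 1 culture are paired by their origin. The correlation of their deviations from the condition means had a median of 0.278 and 0.342 between EV libraries at 120 and 320 mg/dL and their control, of 0.707 and 0.614 between the respective cell libraries, and of 0.0786 between EVs and cells at the same dose. Female and male libraries of a pregnancy share the dam and litter (medians 0.119 for EVs and 0.370 for cells). Alternatives were DESeq2, median-of-ratios factors, library totals, no filter, leaving out each pregnancy, other blocks, counts summed per culture, control libraries alone, thinning, and only the compared doses. P-values for location measure the spread between libraries, of which 3 per location come from the same culture, and those for sex the spread between cultures.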

Additional observations from a re-analysis of the deposited data

Results flagged for a closer look

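In groups of 6 libraries of 1 location and dose, the CPM of 15 named genes was examined for a library apart from the rest. By chance that happens in about 1 of 20 groups, and 9 of 90 groups held one. Npc2, Grn, Tfeb and Ctsh were named after their values were seen, so the 9 cannot be set against that rate. Tfeb stood at 404 CPM in EVs of the male culture of set 5 in control medium (nearest library 8.67 CPM) and at 515 CPM in those at 120 mg/dL (nearest 4.13 CPM). In EVs at 320 mg/dL, Tfeb was low at 1.70 CPM in the female culture of set 4 (nearest 4.86 CPM). Ctsh was high in the female EVs of set 4, at 11.8 CPM in control medium (nearest 3.76 CPM) and 8.49 CPM at 320 mg/dL (nearest 2.66 CPM), on 15 and 5 counts. Ctsb was low at 9.72 CPM in the male EVs of set 4 at 320 mg/dL (nearest 12.6 CPM), and Ctsl was low at 1.66 CPM, 1 count, in the male EVs of set 3 at 120 mg/dL (nearest 6.24 CPM). Ctsl was high at 105 CPM in the male control cells of set 5 (nearest 68.5 CPM). Grn was low at 4.05 CPM in the female EVs of set 5 at 120 mg/dL (nearest 13.3 CPM).

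In cells at 120 mg/dL, the 3 female cultures moved one way and the 3 male cultures the other way for 3 genes, and the difference was not tested. No share over all genes is given for this, so nothing is read from the count of 3. Some moves were near 0, as for Ctsb in the female culture of set 4 (0.0017) and Npc2 in the male culture of set 4 (-0.0043). The female minus male difference of the mean log2 change was 0.191 for Ctsb (0.149 in females, -0.04 in males), -0.274 for Igf2r (-0.192 and 0.08) and 0.247 for Npc2 (0.160 and -0.09).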

How the results depend on the processing

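Of the counts of genes called, 70 recomputed values were within 1.5 times of the reported one. EVs against cells gave 29 to 33 of 35 genes without a pregnancy and 32 with the replicate block of paired EV and cell libraries, where of the named genes Tfeb alone lost its call, and a replicate block by pregnancy left the sex comparisons at 0. Thinning to 959217 counts left 24 genes to test, of which 21 were called. At 320 mg/dL in EVs, where the list was chosen and calls are no test of it, DESeq2 called 2 genes (Lamp2 and Psap), library totals 0, leaving out a pregnancy 0 to 1 (0 without set 3 or 5), no replicate block 0 and only the compared doses 0. DESeq2 called 1 gene (Lamp2) at 120 mg/dL in EVs and 1 (Lamp2) in the ratio at 320 mg/dL. Both comparisons share EV libraries with the one that chose the list, so these calls are no test of Lamp2 either. By sex, 1 gene (Tfeb) was called in EVs with no filter, and 3 in EVs and 4 in cells with the libraries of each dose apart. Over all genes, the 12302 calls of EVs against cells became 23256 in DESeq2, 22029 with no filter and 6376 when thinned. In EVs at 320 mg/dL the 10 calls became 267 in DESeq2, 207 with no filter, 0 to 110 without a pregnancy and 0 without the block, and the 7 in cells became 94 in DESeq2 and 0 without the block. The 7 calls by sex in cells became 175 in DESeq2 and 994 with libraries apart, and the 0 in EVs became 28, 1224 and, with no filter, 644. Log2 fold changes of EVs over cells ranged from -0.21 to 2.73 for Tfeb without a pregnancy, and it was -0.47 without its 2 high libraries, which was added after the data were seen. On thinned counts Npc2 (0.069) and Grn (0.55) turned to higher in EVs. The causes were not tested. Of the values of single genes, 153 kept their side of the threshold, 15 lost and 4 gained the call with the same sign, and 4 changed both sign and call. Those last were Tfeb without set 5 and without its 2 high libraries, and Npc2 and Grn when thinned. The uncalled Lamp2 and Grn also turned sign without a call under some alternatives. Lamp2 turned to 0.21 without set 5 and in the control libraries and to 0.25 when thinned, and Grn to between 0.0044 and 0.28. Counts of 3 to 47 per EV library limit Ctsb, and of 3 to 38 Asah1. Lower counts limit other genes more, such as Ctso (0 to 13) and Ctsz (0 to 10).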
